A study of Mus musculus with 6 samples.

Results

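The weakly paired new lncRNAs are transcripts of the mouse cortex whose predicted fold leaves close to one base unpaired for each paired base. They were selected on the deposited secondary structures as the records in which under 53% of the bases take part in a pair. The rule found 395 of 8040 records, or 4.91% of them (Wilson 95% interval 4.46 to 5.41%, covering counting error only). The RNA came from cortex near the bleeding site of adult male wild-type C57BL/6 mice (C57BL/6 J in the methods) at 24 h after subarachnoid hemorrhage (SAH), induced by endovascular perforation, and from the cortex of control mice, which had the surgery without perforation according to the methods and are also described as normal in the labels. Each group had 3 libraries, and each library pooled the lysates of 3 mice. The records were assembled over all 6 libraries and hold a sequence, a structure and a folding energy, with no value per library, so no comparison of control and SAH was made and the depth behind each record is unknown. Records are transcripts and not replicates of a condition, and all comparisons here are descriptions without a test.

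Long noncoding RNAs are transcripts longer than 200 nt that are not translated into a known protein. Like any RNA they fold back on themselves, with G pairing with C, A pairing with U, and the weaker G-U pair, and the stretches that stay single-stranded are open to proteins that read short motifs. In brain tissue such proteins include hnRNP L, which binds CA repeats, PTBP1 and its neuronal relative PTBP2, which bind pyrimidine tracts rich in CU, and TDP-43, which binds GU repeats. None of these proteins was measured here, and a fold computed from sequence takes no account of bound proteins or of RNA modification.

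The longest stretches left unpaired in the predicted folds do not have the composition of the whole transcripts. Pooled over the members, these stretches held 4.28% G, whereas whole members averaged 17.2% G. Those of the other records were also poor in G, at 6.62%. The sequences printed here are extremes of the set. The longest unpaired stretch of the most weakly paired members is given in capitals, with up to 10 bases on each side in lower case, 5′ to 3′ as deposited. The first 3 belong to the members with the lowest paired percent.
TCONS_00165007: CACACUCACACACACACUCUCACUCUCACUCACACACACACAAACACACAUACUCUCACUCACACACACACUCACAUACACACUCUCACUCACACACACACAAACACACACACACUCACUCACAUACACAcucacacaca
TCONS_00048986: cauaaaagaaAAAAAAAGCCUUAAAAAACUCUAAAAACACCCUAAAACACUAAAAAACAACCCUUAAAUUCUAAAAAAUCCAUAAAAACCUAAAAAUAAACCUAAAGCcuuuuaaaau
TCONS_00036204: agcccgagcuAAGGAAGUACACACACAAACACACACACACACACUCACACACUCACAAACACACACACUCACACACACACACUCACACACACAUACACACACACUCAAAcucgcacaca
TCONS_00249824: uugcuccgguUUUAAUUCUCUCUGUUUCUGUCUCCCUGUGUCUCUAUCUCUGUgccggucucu
TCONS_00251536: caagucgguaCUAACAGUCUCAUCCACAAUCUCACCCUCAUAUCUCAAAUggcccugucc
The stretch of TCONS_00165007 is made of CA steps broken by CU, with no G in its 130 bases. That of TCONS_00048986 is made of A runs broken by C and U, with 2 G among 98 bases, and that of TCONS_00036204 is an imperfect CA repeat with 3 G among 99 bases. TCONS_00249824 is U-rich in place of A-rich, with 23 U, 12 C and 3 A among the 43 bases of its stretch.

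Other members also held long unpaired stretches. The first 3 below are among the 10 longest unpaired stretches of the set. The last belongs to the most weakly paired of the members with more G than C, a minority described later, and this record was chosen after its values were seen.
TCONS_00169344: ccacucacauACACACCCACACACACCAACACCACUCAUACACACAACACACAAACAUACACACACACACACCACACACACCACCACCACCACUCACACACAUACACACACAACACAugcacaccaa
TCONS_00080243: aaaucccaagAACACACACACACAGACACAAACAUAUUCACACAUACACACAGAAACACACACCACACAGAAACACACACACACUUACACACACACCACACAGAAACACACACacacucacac
TCONS_00241506: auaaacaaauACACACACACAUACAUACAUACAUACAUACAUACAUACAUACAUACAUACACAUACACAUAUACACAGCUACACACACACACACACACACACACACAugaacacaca
TCONS_00210674: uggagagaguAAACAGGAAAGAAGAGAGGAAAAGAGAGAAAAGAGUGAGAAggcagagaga
The first 3 consist mostly of A and C, in CA and CAUA patterns. The stretch of TCONS_00210674 consists mostly of A and G.

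The share of paired bases chose the members, so its values are a description. The members averaged 50.6% paired bases (SD 3.48, n = 395 records), with a median of 51.4%, and the other 7645 records averaged 59.1% (SD 2.68) and reached 69.9%. Most members lay close to the limit, with 144 at 52 to 53% and 154 at 50 to 52%, whereas 97 were under 50% and 14 under 45%. Just inside the limit were TCONS_00033560 at 52.98%, TCONS_00079628 at 52.99% and TCONS_00150432 at 52.99%. Just outside it were TCONS_00131877 at 53.0015%, TCONS_00251017 at 53.01% and TCONS_00216447 at 53.02%, and 218 records lay between 53 and 54%. The distribution has no gap at the limit.

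**Figure D1:**
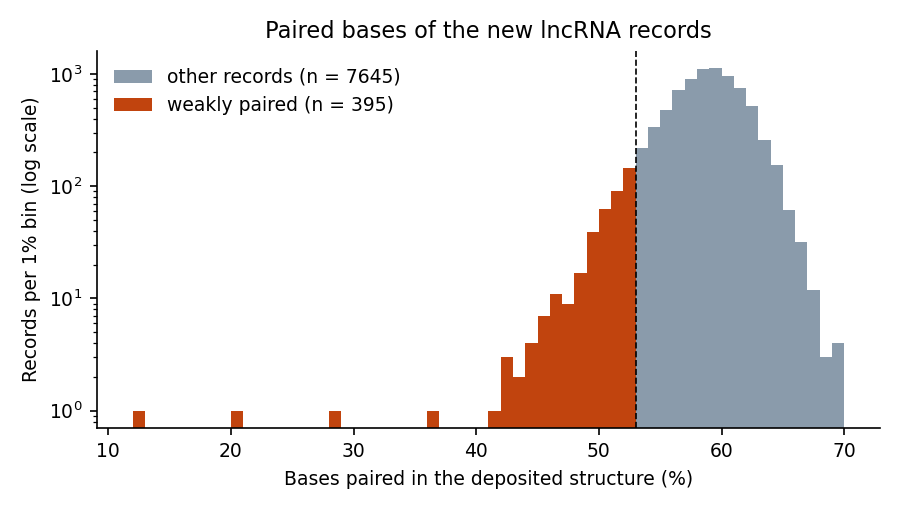
Number of records (log scale) in each 1% bin of paired bases, for the 395 weakly paired (red) and 7645 other records (grey), with the limit of 53% dashed. The counts fall smoothly across the limit, and the records at 12.1, 20.7, 28.9 and 37.0% stand apart from the rest of the tail.

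The 4 lowest members stood apart at the low end. TCONS_00165007, a transcript of 779 nt, had 12.1% of its bases paired, TCONS_00048986 (948 nt) had 20.7%, TCONS_00036204 (374 nt) had 28.9% and TCONS_00249824 (303 nt) had 37.0%. TCONS_00165007 is 41.3% A and 39.9% C with 5.52% G, and TCONS_00048986 is 52.7% A with 4.96% G. Counting bases alone, with each A free to meet a U and each G a C or a U, these 2 records could pair at most 37.5% and 47.0% of their bases, and they were the only records of the 8040 whose composition cannot reach 53%. The next members in order were TCONS_00251536 (1151 nt) at 41.2%, TCONS_00008000 (879 nt) at 42.3%, TCONS_00026360 (1033 nt) at 42.4%, TCONS_00054874 (337 nt) at 42.7%, TCONS_00134444 (375 nt) at 43.2% and TCONS_00225300 (409 nt) at 43.5%. TCONS_00251536 is 35.3% C and 12.9% G and holds no simple repeat, and TCONS_00054874 has 30.3% C against 16.9% G.

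The weakly paired records were shorter than the others. Their median length was 810 nt against 1137 nt, and their mean was 862 nt (SD 383) against 1323 nt (SD 798). The shortest, TCONS_00164316, has 228 nt and the longest, TCONS_00236611, has 2504 nt, whereas the other records reach 10118 nt. Of the members, 81 (20.5%) had at most 550 nt, against 4.87% of the others, and 1 had 2500 nt or more, against 482 of the others. Read the other way, 17.96% of the records of 200 to under 550 nt were weakly paired (Wilson interval 14.7 to 21.8%), then 7.66% at 550 to under 900 nt, 4.90% at 900 to under 1200 nt, 2.27% at 1200 to under 1500 nt, 1.61% at 1500 to under 2500 nt and 0.207% from 2500 nt. The mean paired percent rose over these classes, from 57.1% in the shortest to 59.3% in the longest, while its SD fell from 4.94 to 1.90. Short records thus had both a lower mean and a wider spread. The part of each in the share under 53% was not tested.

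The strongest difference in composition was in G, which can pair with C and with U, whereas C pairs with G alone. The members had 17.2% G (SD 3.35) against 21.2% (SD 3.41) in the others. They had 31.7% A (SD 5.39) against 29.2% (SD 3.71), 22.1% C (SD 4.17) against 20.8% (SD 3.33), and 29.1% U (SD 5.31) against 28.9% (SD 3.78). GC content followed G down, at 39.3% (SD 5.22) against 42.0% (SD 5.68). The differences in A, C and U are smaller than the spread between records. G was the rarest base in 328 members (83.0%) and in 42.8% of the others, and it made up under 16% of 145 members (36.7%) and of 4.88% of the others.

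C exceeded G in 339 of the 395 members (85.8%, Wilson interval 82.0 to 88.9%), against 47.2% of the others. The share of weakly paired records rose with this excess. It was 2.42% where C exceeded G by 0 to under 3 percentage points, 10.4% at 3 to under 6 points, 29.7% at 6 to under 9 points and 73.5% at 9 points or more, where 72 of 98 records were weakly paired. By G content alone the share was 54.9% under 14% G, 22.9% at 14 to under 16%, 10.6% at 16 to under 18%, 4.78% at 18 to under 20% and 1.63% at 20 to under 22%, and it stayed between 0.762% and 0.951% in the classes above. Across all 8040 records the paired percent correlated with G content at a Pearson r of 0.55, with A at -0.40, with U at -0.08 and with C at -0.02. These coefficients are descriptions across transcripts, many of which share sequence.

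**Figure D2:**
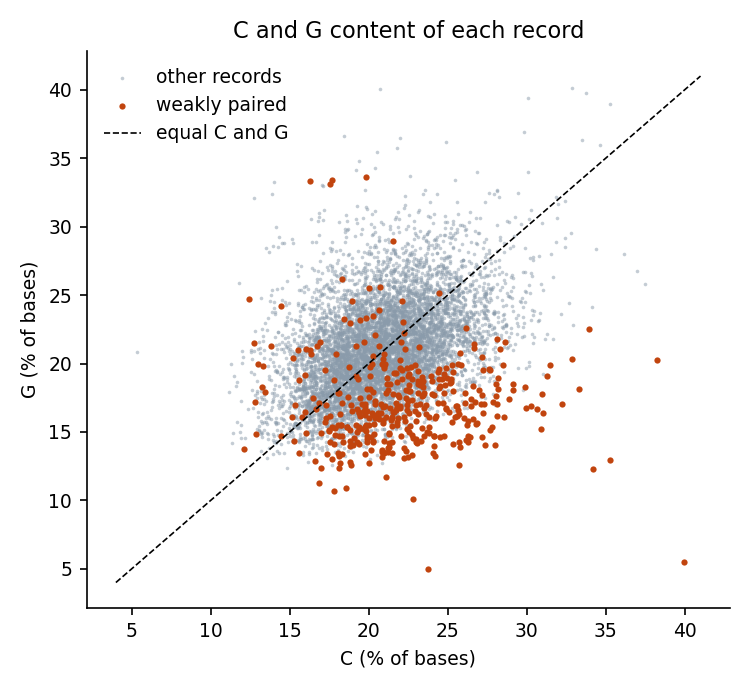
G content (vertical axis) against C content (horizontal axis) of each record, both in percent of bases, with weakly paired records in red, other records in grey and equal C and G dashed. Of the 395 weakly paired records, 339, those with more C than G, lie under the dashed line, and 2 lie near 5% G.

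Length and G content went together with weak pairing each within classes of the other. Among records of 200 to under 550 nt, 65.9% of those with under 16% G were weakly paired (29 of 44), against 4.90% of those with 22% G or more (10 of 204). Among records of 1500 nt or more the same classes gave 10.1% (10 of 99) and 0.187% (1 of 534). The members had less G than the others in each of the 5 length classes. Their mean was 17.9% against 22.5% in the shortest class, 17.2% against 21.5%, 16.96% against 21.4% and 16.4% against 21.0% in the middle ones, and 16.9% against 20.4% from 1500 nt.

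**Figure D3:**
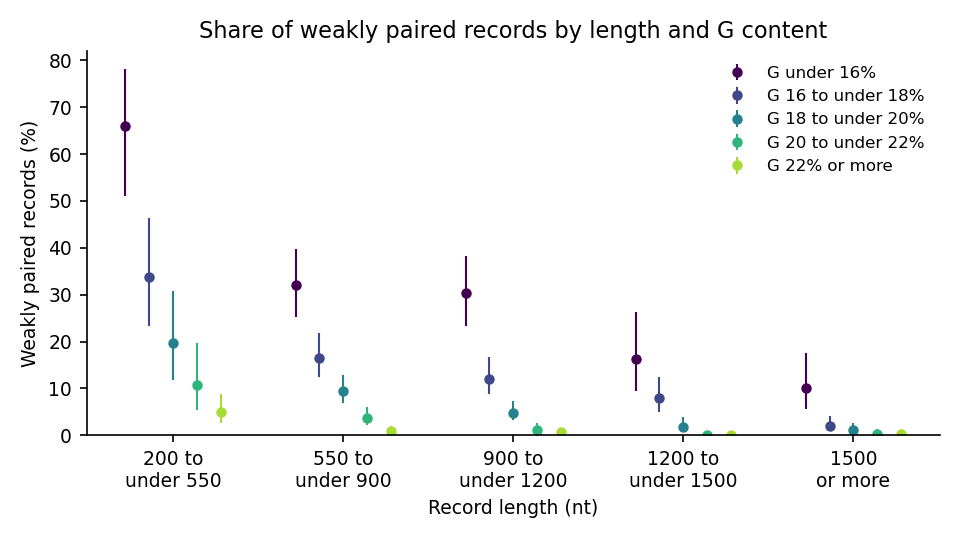
Percent of records that are weakly paired in each class of length (nt) and G content, with Wilson 95% intervals. In each length class the point for under 16% G is the highest, from 65.9% in the shortest records to 10.1% in those of 1500 nt or more.

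The 54 members with more G than C formed a minority of another composition, and 2 members had equal C and G. In these 54 the excess lay in A over U. They had 36.4% A (SD 4.72) against 24.7% U (SD 5.24), and A exceeded U in 52 of the 54 and by over 10 percentage points in 35 (64.8%). Among other records with more G than C, A exceeded U by over 10 points in 4.04%. Among the members with more C than G it did so in 15.6%, against 1.25% of other records with more C than G. The excess of A was thus also more frequent in that larger kind of member than in its reference. Their purine content (A and G) averaged 58.1% (SD 4.91), against 47.4% (SD 5.16) in the members with more C than G. In the fold of the 54 members 66.4% of A was unpaired (SD 5.49) and 38.6% of U (SD 8.44). Purine content thus spread to both sides, being under 45% in 29.9% of all members against 5.69% of the others, and over 55% in 17.2% against 8.04%.

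Both kinds of imbalance lower the highest paired percent that the base counts allow. This ceiling averaged 86.2% (SD 7.10) in the members and 94.1% (SD 4.22) in the others. It was under 80% in 60 members and in 60 of the others, so 15.2% of members but 0.785% of the others had it, and it exceeded 95% in 15 members against 3786 of the others. Of the records with a ceiling under 75%, 21 of 30 were weakly paired, and of those with a ceiling of 95% or more, 0.395%. Apart from the 2 records named above, the ceiling lay above the paired percent the rule asks for. The ceiling counts bases alone and takes no account of folding. The deposited folds stayed far under it, averaging 50.6% paired bases in the members and 59.1% in the others. A ceiling above the limit thus does not tell whether a composition can fold to that limit. Whether base composition fixed membership in these records was not tested.

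Within the deposited folds the loss of pairs was uneven across bases. Over all bases of the members, 60.7% of A was unpaired, 51.9% of C, 49.2% of U and 24.2% of G. In the others the values were 53.3% of A, 39.6% of C, 41.2% of U and 24.0% of G. Over all members, G was thus paired to nearly the same extent in both sets, and C showed the widest difference. The members with more G than C were an exception, with 37.1% of G unpaired per record (SD 6.19) against 26.7% (SD 4.25) in other records with more G than C, and 36.8% of C (SD 7.48) against 35.0% (SD 5.14). In the members with more C than G, 21.9% of G was unpaired (SD 5.15) against 21.2% (SD 3.17) in other records of that kind, and 53.4% of C (SD 6.31) against 44.01% (SD 4.40). The unpaired bases lay mainly in multiloops, the junctions from which several helices branch, which held 23.7% of a member's bases (SD 4.85) against 16.2% (SD 3.51) in the others. Exterior bases, outside every helix, were 2.77% (SD 2.81) against 1.22% (SD 1.06), and hairpin loops were 10.5% (SD 2.43) against 9.22% (SD 1.58). Interior loops and bulges went the other way, at 12.4% (SD 3.51) against 14.3% (SD 2.63).

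**Figure D4:**
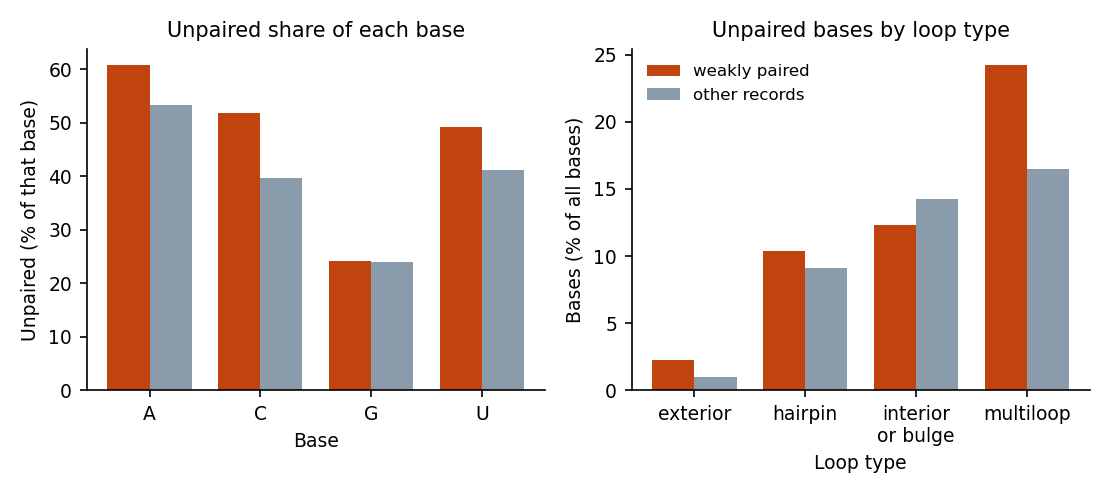
Left, percent of each base that is unpaired, and right, percent of all bases in each loop type, pooled over the bases of the weakly paired (red) and other records (grey). G is unpaired to 24.2 and 24.0%, while C differs most, and multiloop bases account for most of the added unpaired bases.

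The helices themselves were similar in length and fewer in number. Uninterrupted stems averaged 4.38 pairs (SD 0.337) in the members and 4.46 (SD 0.282) in the others, and there were 5.80 stems per 100 nt (SD 0.547) against 6.65 (SD 0.520). G-U pairs made up 9.12% of the members' pairs (SD 2.49) against 11.5% (SD 2.31), A-U pairs 48.9% (SD 6.77) against 45.9% (SD 6.88), and G-C pairs 42.0% (SD 7.06) against 42.6% (SD 7.05). The folding energy was -22.7 kcal/mol per 100 nt (SD 3.42) against -28.4 (SD 4.24). The longest stem of a record had a median of 10 pairs in the members and 11 in the others, and a maximum of 16 and 105. All of these measures come from the structure that chose the members.

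The longest unpaired stretch of a member had a median of 29 nt, against 21 nt in the others, and a mean of 34.2 nt (SD 17.05) against 23.1 nt (SD 9.39). The stretch reached 30 nt in 194 members (49.1%) against 17.4% of the others, and 50 nt in 53 (13.4%) against 2.04%. It took up 4.48% of a member's length on average (SD 2.56) against 2.07% (SD 1.08), and up to 26.5% in TCONS_00036204. Besides the 130 nt of TCONS_00165007, long stretches were 107 nt in TCONS_00169344, 105 nt in TCONS_00236611, 103 nt in TCONS_00080243, 99 nt in TCONS_00036204, 98 nt in TCONS_00048986, 97 nt in TCONS_00241506, 83 nt in TCONS_00166055 and 82 nt in TCONS_00138742. With the stretch left out of the count, 151 of the 395 members stayed under 53%. No new fold was made for this, and leaving out unpaired bases can only raise the paired percent. Of the bases outside the stretch 14.5% were paired in TCONS_00165007 and 23.1% in TCONS_00048986.

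The stretches are poor in G. Pooled over the 395 members they were 43.1% A, 26.7% C, 25.8% U and 4.28% G, and in the other records 43.3% A, 21.7% C, 28.4% U and 6.62% G. The members' stretches thus held more C, and less U and G, than those of the others. A and C made up at least 80% of the stretch in 105 members (26.6%) against 17.8% of the others. A and U did so in 96 members (24.3%) against 28.96% of the others. For U and C it was 32 (8.10%) against 6.97%, and for A and G 28 (7.09%) against 7.35%. For G and U it was 2 (0.506%) against 1.27%. The stretch lay in a multiloop in 317 members (80.3%), in the exterior in 42, in a hairpin loop in 34 and in an interior loop in 2. With each record divided into 3 equal parts, its midpoint fell in the first in 138 members, in the middle part in 131 and in the last in 126.

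A simple repeat, here a perfect tandem repeat of a unit of 1 to 6 nt over at least 20 nt, was present in 89 members (22.5%, Wilson interval 18.7 to 26.9%) and in 1249 of the others (16.3%, interval 15.5 to 17.2%). The kind of repeat differed more than the number. Repeats made only of A and C were in 59 members (14.9%, interval 11.8 to 18.8%) against 6.46% of the others. Repeats made only of G and U, the complement of those, were in 5 members (1.27%, interval 0.542 to 2.93%) against 3.95%. The dinucleotide repeat AC was in 38 members (9.62%) against 4.26%, and GU in 2 members (0.506%) against 2.12%. CU was in 11 members (2.78%) against 1.02%, and AG in 2 (0.506%) against 0.746%. The units AAAC, AAAAC and AAAAAC were in 8, 7 and 6 members, that is 2.03%, 1.77% and 1.52%, against 0.863%, 0.641% and 0.392% of the others. The unit ACAU was in 4 members and in 10 of the others.

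In these repeats the bases were mostly unpaired. Of the repeat bases 82.1% were unpaired in the members and 56.8% in the others. The members were chosen for unpaired bases in this same structure, so a higher share in them is in part what the rule gives. The sets also hold different mixes of repeats. Within AC repeats 87.9% of the bases were unpaired in the members and 76.8% in the others, within CU repeats 80.1% and 55.6%, and within GU repeats, of which the members held 2, 30% and 25.9%. AC repeats were thus mostly open, and GU repeats mostly paired, in both sets. Simple repeats nevertheless covered 1.03% of the members' bases (0.463% in the others) and 1.72% of their unpaired bases. With the repeat bases left out of the count, and no new fold made, 363 of the 395 members stayed under 53%, and 2 of the other records fell under it. In 49 members (12.4%) the longest unpaired stretch overlapped a simple repeat, against 6.00% of the others.

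A few members held long repeats of this kind, and so did other records. In TCONS_00008000 simple repeats of AC, CU, AAAAC and CCUU cover 18.8% of the record. The highest share in the other records was 18.4%. In the deposited fold 50.1% of the bases of TCONS_00008000 outside these repeats were paired, against 42.3% of all its bases. A fold of the record without its repeats was not made. Its AC repeat of 61 nt is the longest AC repeat in any member, and its longest unpaired stretch of 58 nt lies in a pyrimidine tract that begins as a CU repeat. TCONS_00077380 holds the longest CU repeat of the members, 66 nt, and is unpaired over 54 nt of it. TCONS_00049284 holds the longest AAAC repeat, 31 nt, TCONS_00242280 the longest AAAAC repeat, 47 nt, TCONS_00095454 the longest AAAAAC repeat, 24 nt, and TCONS_00241506 the longest ACAU repeat, 43 nt. These sequences show an AC repeat, a pyrimidine tract and an AAAC repeat of members. The capitals mark the repeat in the AC and AAAC repeats and the unpaired stretch in the pyrimidine tract.
TCONS_00008000, AC repeat: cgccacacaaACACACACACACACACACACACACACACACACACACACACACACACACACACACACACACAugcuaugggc
TCONS_00008000, pyrimidine tract: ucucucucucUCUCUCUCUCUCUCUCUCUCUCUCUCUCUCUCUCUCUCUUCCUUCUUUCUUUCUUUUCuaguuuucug
TCONS_00049284, AAAC repeat: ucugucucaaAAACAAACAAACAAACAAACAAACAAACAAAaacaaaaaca

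None of the 38 members with an AC repeat also held a GU repeat. Little can be read from this, since only 2 members held a GU repeat. Pairs between such repeats also count toward the paired percent that chose the members. In the others 15 of the 326 records with an AC repeat held a GU repeat too, and in these 27.6% of the AC repeat bases were unpaired, against 79.4% in the 311 records with an AC repeat alone. In 14 of the 15 at least 10 bases of the AC repeat were paired with the GU repeat. The record with the most such pairs, TCONS_00033438 (1227 nt, 60.1% paired), has 43 of the 44 bases of its AC repeat paired with a GU repeat of 44 nt. It is shown, with the repeats in capitals, as a counterpart to the AC repeat of TCONS_00008000.
TCONS_00033438, AC repeat: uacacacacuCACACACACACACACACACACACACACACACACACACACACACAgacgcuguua
TCONS_00033438, GU repeat: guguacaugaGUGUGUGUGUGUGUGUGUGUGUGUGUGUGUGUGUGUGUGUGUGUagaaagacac

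Tracts that need not be perfect repeats were counted as well. A run of at least 30 nt made only of A and C was in 59 members (14.9%) against 6.25% of the others, and one made only of U and C in 24 (6.08%) against 2.56%. A run made only of A and G was in 17 (4.30%) against 2.50%, and one made only of G and U in 4 (1.01%) against 3.51%. The longest run without G averaged 41.4 nt (SD 20.7) in the members and 33.3 nt (SD 13.0) in the others, and had 170 nt in TCONS_00165007 and 186 nt in TCONS_00169344.

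The deposited files give each record on 1 strand and do not say which strand of the genome it is. The reverse complement of 370 members of at most 1500 nt, and of 1 in 5 of the other records of that length (1141 records), was therefore folded with the same energy model. The complements of the members had 58.6% paired bases (SD 4.06), against 50.5% (SD 3.56) for the same members as deposited, and 353 of the 370 had a higher value on the complement. The complements of the other records had 58.6% (SD 3.20), against 59.0% (SD 2.91) as deposited. Under 53% were 29 of the members' complements (7.84%, Wilson interval 5.51 to 11.0%) and 53 of the others' (4.65%, interval 3.57 to 6.03%). Because the members were chosen for a low value on the deposited strand, a higher value on the other strand is in part what the rule gives, and the others' complements are the reference for it.

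The complement turns C into G, and the result differed with the composition. In the 315 members with more C than G the complement had 59.3% paired bases (SD 3.58), against 50.4% (SD 3.80) as deposited, and 12 were under 53%. In the 55 with at least as much G as C it had 54.4% (SD 4.21), against 51.4% (SD 1.40), and 17 were under 53%. Among the other records with more C than G the values were 60.1% (SD 2.59) on the complement and 57.9% (SD 2.57) as deposited. The 610 other records with at least as much G as C went the other way, with 57.4% (SD 3.14) on the complement and 60.1% (SD 2.79) as deposited, and 49 of their complements were under 53%. The complement of TCONS_00165007 had 54.4% paired bases, that of TCONS_00048986 65.6% and that of TCONS_00036204 55.6%, whereas that of TCONS_00249824, at 41.6%, remained low. Which strand was transcribed was not tested.

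**Figure D5:**
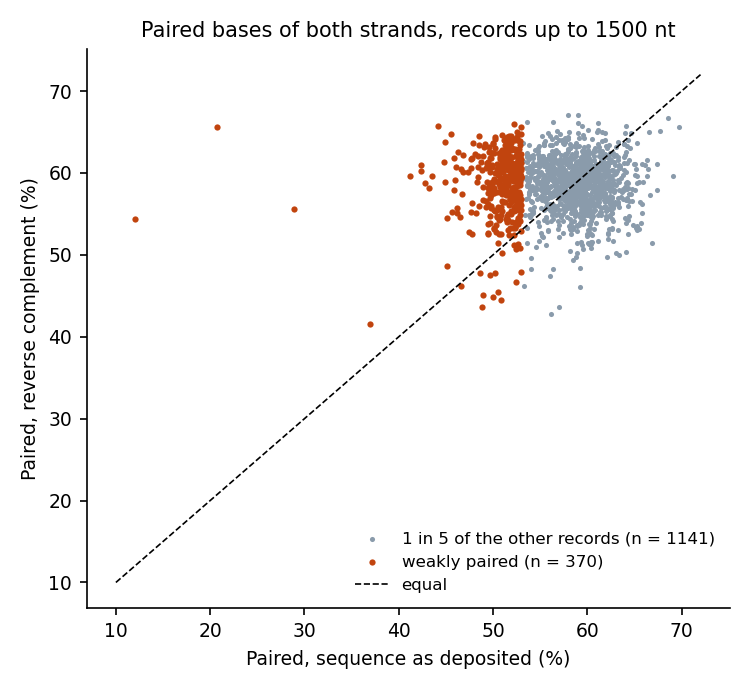
Paired percent of the reverse complement against that of the deposited sequence for 370 weakly paired (red) and 1141 other records (grey) of at most 1500 nt, with equality dashed. Of the weakly paired records 353 lie above the dashed line, and the complements of both sets center on 58.6%.

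The members' pairing stayed low on their own strand when the fold was computed otherwise, but many crossed the limit. The sequences are those chosen for a low deposited value, so a low value in a related fold is in part what the rule gives. The mean change from the deposited fold was 1.46 points in members and 0.214 in others by the ensemble described next. It was 2.02 and 1.43 points with newer energy parameters, and -0.665 and -2.29 points with a span limit. With pairing averaged over the ensemble of structures, the 370 members of at most 1500 nt had 51.99% paired bases (SD 3.86) and 1 in 15 of the others of that length (381 records) 59.2% (SD 2.66). With the newer Turner energy parameters the members had 52.5% (SD 4.56) and 5705 others 60.4% (SD 3.10). The ensemble and the fold with newer parameters also differed from the deposited model in a second setting of the program (dangles 2 in place of 1). The effect of each setting alone was not tested. With pairs limited to a span of 200 nt all 395 members had 49.9% (SD 4.21) and all 7645 others 56.8% (SD 2.85). Under 53% were 216 of 370 members by the ensemble, 187 of 370 with the newer parameters and 329 of 395 with the span limit. Of the others, 2 of 381 (0.525%), 59 of 5705 (1.03%) and 712 of 7645 (9.31%) were under it in the same order. TCONS_00165007 had between 8.22% and 13.7% and TCONS_00048986 between 21.5% and 24.4% over these 3 folds.

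Most members shared no long sequence with another record. When records sharing an exact run of 50 bases were joined, directly or through others, the 395 members fell into 359 groups, and 278 members (70.4%) shared such a run with no record, against 61.1% of the others. The largest group held 347 records, among them 24 members (6.08% of the members, against 4.22% of the others). TCONS_00008000, TCONS_00077380, TCONS_00079628 and TCONS_00080243 are in it. A simple repeat of 50 bases or more can by itself join records that share nothing else. TCONS_00008000 holds an AC repeat of 61 nt and TCONS_00077380 a CU repeat of 66 nt. How many records were joined in this way was not tested. No member had the same sequence as another record.

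The deposited records carry no genome positions, and positions that the study lists for some of its transcripts were not used here. An exact match of at least 50 bases to the RefSeq promoter windows (250 bases before to 50 after a gene's start, GRCm38.p6) was found for 13 members (3.29%) and for 283 of the others (3.70%). A match of this kind does not place a transcript, since windows can hold interspersed repeats, and 5 of the 13 matched more than 1 window. The longest matches, named after their values were seen, were 284 bases of TCONS_00248369 with the window of Gm41892 (chromosome X, 19236596 to 19236895, same strand), 140 bases of TCONS_00133141 with that of LOC115489542 (chromosome 2, 175037944 to 175038243, opposite strand) and 91 bases of TCONS_00025710 with that of Gpr6 (chromosome 10, 41072241 to 41072540, opposite strand). Gpr6 encodes an orphan G protein-coupled receptor of the brain. TCONS_00025710 (381 nt, 48.8% paired) is one of the few G-rich members, with 33.3% G.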

How the data were processed

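Cortex RNA was sequenced in 6 libraries, 3 per group. Per the labels and the study's methods, ribosomal RNA was removed, cDNA was strand-marked with dUTP, and paired-end reads were aligned with TopHat2 (build mm10). The authors deposited 1 table of 8040 new lncRNAs, with a sequence, a dot-bracket structure and a free energy score in kcal/mol each. The folding program is not given in the sources used here. Evaluated with ViennaRNA 2.7.2 (Turner 1999 parameters, dangles 1), all 8040 energies agreed within 0.01 kcal/mol. Of 37 members folded again, 37 gave the deposited energy and 34 the deposited structure.

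Paired percent, loop types, repeats and base counts were computed per record (Python 3.11.15 with pandas 2.3.3), intervals with scipy 1.17.1 and figures with matplotlib 3.10.9. SDs are over records. Scripts were tested on simulated data. No test was run over records. The members, lists and rules were chosen with earlier results of these data known. Records named are the 10 lowest in paired percent, the 10 with the longest unpaired stretch, 3 on each side of the limit, the shortest and longest, and the holder of the longest repeat of each unit found in at least 3 members, of the highest and of the lowest GC percent, except where stated. The records were not located in the genome. One record that this rule names is not reported here.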

Additional observations from a re-analysis of the deposited data

How the results depend on the processing

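No paired analysis was possible because each record pools all libraries. The number of members depends on the limit, being 97 under 50%, 160 under 51%, 251 under 52%, 613 under 54% and 950 under 55%. It was 1041 with the span limit and 151 with the longest unpaired stretch left out of the count. Of records up to 1500 nt, 370 as deposited and 246 with the newer Turner parameters were under 53%, and of the 370 members 187 stayed under it with those parameters, 216 in the ensemble and 29 on the reverse complement. These folds of long records, and the complement and ensemble of most other records, were not run, and the limits on length and sampling were chosen after seeing the data. The share of members with a simple repeat was 46.1% for repeats of at least 12 nt, 11.6% for at least 30 nt and 18.6% with the longest record of each sharing group. Long repeats can themselves join records to a group, so that last choice can remove holders of repeats. The excess over the others, 6.19 percentage points, was 2.41 and 3.54 points at those lengths and 11.9 points at 700 to 1500 nt. The U difference of 0.216 points was 0.324 without repeats, 0.540 at 700 to 1500 nt and 0.0921 over pooled bases. The exterior difference was 0.832 points at 700 to 1500 nt, and the interior difference -0.891 with the newer parameters. The cause of these moves was not tested. The other 34 of 56 alternatives kept the direction and moved by less than 1.5 times or within the interval, and none changed direction.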

Other observations

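The member with the highest GC content, TCONS_00109384 (489 nt), had 58.5% GC, of which 38.2 points were C and 20.2 were G, and 50.7% of its bases were paired. The member with the lowest, TCONS_00243983 (306 nt), had 25.8% GC with 45.8% A, and 52.9% of its bases were paired with a longest unpaired stretch of 12 nt.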
